A study of Homo sapiens with 30 samples.

Results

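NEAT1 and MALAT1 are long non-coding RNAs made from neighbouring genes on chromosome 11, and they are described here across 30 RNA libraries of the lung adenocarcinoma line A549. The 2 genes were taken from the table of 60675 Ensembl identifiers by their symbols, and both passed the filter on low counts. Cells received a 70% ethanol extract of a herbal formula at 500, 100 or 20 µg/mL, or the solvent DMSO, here called vehicle, and were collected after 24 h. Soshiho-tang and Yijin-tang had 3 libraries per dose and vehicle had 3. Okbyeongpung-san had 2 per dose, of which replicate 2 carries the letter E and replicate 3 the letter D in its title. Soyo-san had 1 per dose, all of letter D, so its values stand without tests. The other libraries carry the letter E. No source explains these letters. The labels give the vehicle as 0.1% DMSO. They do not say that replicates were separate cultures, so p-values measure the spread between libraries, which may be technical.

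Both RNAs stay in the nucleus. NEAT1 is the scaffold of paraspeckles, nuclear bodies that form around its long isoform together with RNA-binding proteins such as NONO and SFPQ, and a short isoform is made from the same promoter when cleavage occurs near the 5′ end. MALAT1 collects at nuclear speckles, where splicing factors are stored, and it is among the most abundant long non-coding RNAs of lung carcinoma cells. The 3′ ends of MALAT1 and of long NEAT1 are cut by RNase P ahead of a tRNA-like structure and are then protected by a triple helix in place of a poly(A) tail.

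NEAT1 (ENSG00000245532) lies on chromosome 11 at 65422774 to 65445540 of GRCh38, on the plus strand, and its longest transcript in GENCODE release 29 has 22743 bases. MALAT1 (ENSG00000251562) lies 52147 bases downstream on the same strand, at 65497688 to 65506516, with a longest transcript of 8708 bases. Both are annotated as lincRNA. The deposited values are per gene, so the short NEAT1 transcript of 3441 bases cannot be told apart from the long one.

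The last 100 bases ahead of the tRNA-like structure are shown because this end sets both RNAs apart from messenger RNAs. They are the reference sequence of GRCh38 on the plus strand, at chr11:65445441-65445540 for NEAT1 and chr11:65506017-65506116 for MALAT1, written 5′ to 3′ as DNA, with runs of at least 5 A or 5 T in capitals.
NEAT1 end: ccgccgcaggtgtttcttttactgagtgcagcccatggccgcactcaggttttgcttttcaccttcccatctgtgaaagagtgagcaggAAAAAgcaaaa
MALAT1 end: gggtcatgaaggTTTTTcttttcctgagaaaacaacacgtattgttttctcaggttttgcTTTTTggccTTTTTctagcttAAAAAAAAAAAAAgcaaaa
A global alignment of the ends, with gaps allowed, set 90 of the 100 bases of each end opposite a base of the other. Of these pairs 64 were identical. The longest run in capitals is 13 A in MALAT1 and 5 A in NEAT1. Directly downstream of the MALAT1 end, at chr11:65506117-65506173, lies the tRNA-like mascRNA, shown as the piece that is cut away.
mascRNA: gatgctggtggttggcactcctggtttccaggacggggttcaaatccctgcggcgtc

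The libraries held 19833144 to 22327652 counts in vehicle and 24560759 to 38008463 in the treated groups. The 13 mitochondrially encoded messenger RNAs took 10.5% to 10.9% of the counts in vehicle and 6.22% to 9.89% in treated libraries. Every comparison with vehicle thus also compares libraries that differ in depth and in this share. Library sizes without mitochondrial genes were run as an alternative scaling. TMM scaling already offsets most of such a difference in composition, so that alternative could hardly change a call. The part of depth or of the mitochondrial share in the results was not tested. Replicate 2 of Okbyeongpung-san at 500 µg/mL stood apart from replicate 3, with a chi-square per degree of freedom of 42.3, beside 2.07 to 19.2 for the other pairs of replicates. This replicate 2 also held the largest total, 38008463 counts, and the highest mitochondrial share, 9.89%, of all treated libraries. The A549 markers KRT8, KRT18, ALDH1A1, AKR1B10 and NQO1 were abundant in all libraries, whereas the epithelial marker EPCAM was between 3.72 and 6.21 CPM (counts scaled to the TMM-adjusted library total). Of 8 markers of blood, endothelium and fibroblasts none passed the filter; the highest value was 1.24 CPM for LYZ, and CD3E had 0 counts in all libraries.

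NEAT1 was at 307 ± 12.9 CPM in vehicle (SD, n = 3), with 319.9, 294 and 307 CPM in replicates 1, 2 and 3. Every one of the 27 treated libraries lay above the highest vehicle library, at 324 to 801 CPM with a median of 466. The counts behind these values were 5924 to 6533 in vehicle and 9631 to 22674 in treated libraries. Soshiho-tang at 500 µg/mL gave 659.9, 801 and 613 CPM, and no library of another group reached its lowest value. At 100 µg/mL Soshiho-tang gave 421, 492 and 356 CPM, and at 20 µg/mL 432, 383 and 374 CPM. These doses overlapped each other and stayed below the 500 µg/mL libraries.

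Yijin-tang gave close NEAT1 means at all doses, with a coefficient of variation among replicates of 10.5% to 19.1%. The libraries were at 445, 360.5 and 411 CPM at 500 µg/mL, at 466, 353 and 394 CPM at 100 µg/mL, and at 474, 324 and 385 CPM at 20 µg/mL. All 3 doses overlapped. Okbyeongpung-san gave 409 and 557 CPM at 500 µg/mL, 556 and 558 CPM at 100 µg/mL, and 539.7 and 540.5 CPM at 20 µg/mL. The library at 409 CPM is the replicate 2 that stood apart, and without it the Okbyeongpung-san values span 539.7 to 558 CPM. Soyo-san gave 497 CPM at 500, 528 at 100 and 574 at 20 µg/mL, in the range of Okbyeongpung-san or slightly above.

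MALAT1 was at 626 ± 15.8 CPM in vehicle (SD, n = 3), with 638, 608 and 632 CPM in replicates 1, 2 and 3. In treated libraries it ranged from 509.96 to 1742 CPM, with a median of 1077, and 25 of 27 lay above the highest vehicle library. The other 2, replicate 3 of Yijin-tang at 100 µg/mL with 509.96 CPM and at 20 µg/mL with 561 CPM, lay below the lowest vehicle library. Soshiho-tang gave 1354, 1742 and 1144 CPM at 500 µg/mL, 1361, 1176 and 825 CPM at 100 µg/mL, and 1057, 813 and 999 CPM at 20 µg/mL. Neighbouring doses overlapped, whereas the libraries at 500 and 20 µg/mL did not.

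The widest relative spread of MALAT1 among replicates was in Yijin-tang. The libraries were at 1212, 871 and 1079.9 CPM at 500 µg/mL, at 1006, 803 and 509.96 CPM at 100 µg/mL, and at 1077, 675 and 561 CPM at 20 µg/mL. The coefficient of variation was 32.3% at 100 and 35.1% at 20 µg/mL, beside 2.52% in vehicle. Okbyeongpung-san gave 855 and 1291 CPM at 500 µg/mL, 977 and 1291 CPM at 100 µg/mL, and 1114 and 1151 CPM at 20 µg/mL. Soyo-san gave 1202 CPM at 500, 1046 at 100 and 1091 at 20 µg/mL, within the range of Okbyeongpung-san.

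Ordered by group mean, NEAT1 ran from vehicle over Yijin-tang at 20 µg/mL (394 CPM), Soshiho-tang at 20 (396), Yijin-tang at 100 and 500 (404 and 405) and Soshiho-tang at 100 (423) to Okbyeongpung-san at 500 (483), Soyo-san at 500 and 100 (497 and 528), Okbyeongpung-san at 20 and 100 (540.1 and 557), Soyo-san at 20 (574) and Soshiho-tang at 500 (692). From Yijin-tang at 20 to Okbyeongpung-san at 500 each group overlapped the next in this order. The single Soyo-san library at 500 lay above all Yijin-tang libraries and above those of Soshiho-tang at 20 and 100. Vehicle below and Soshiho-tang at 500 above did not overlap with their neighbours. For MALAT1 every pair of neighbours overlapped, from vehicle (626) and Yijin-tang at 20 (771 CPM) to Soyo-san at 500 (1202) and Soshiho-tang at 500 (1413).

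**Figure D1:**
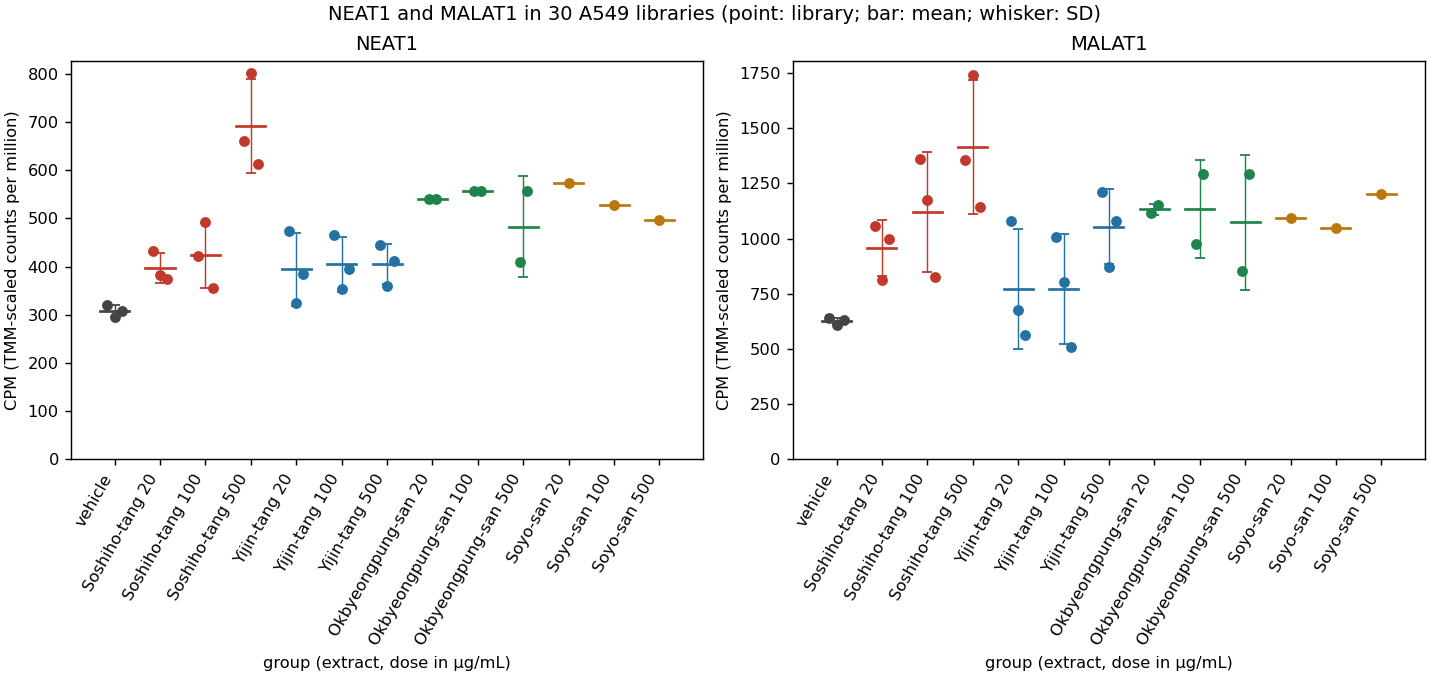
NEAT1 (left) and MALAT1 (right) in CPM on the vertical axis for each of 30 libraries, by extract and dose in µg/mL; points are libraries, bars are group means and whiskers are SD where a group has more than 1 library. All treated libraries lie above vehicle for NEAT1, and 2 Yijin-tang libraries lie below vehicle for MALAT1.

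Per kilobase of the longest transcript, MALAT1 was at the higher level. In vehicle it was at 69.9 to 73.3 CPM per kb and NEAT1 at 12.9 to 14.1 CPM per kb. Across treated libraries MALAT1 was at 58.6 to 200.1 CPM per kb and NEAT1 at 14.2 to 35.2 CPM per kb, so the ranges did not overlap. The order depends on the transcript taken: per kb of the short NEAT1 transcript the vehicle libraries were at 85.5 to 93.0 CPM per kb, above MALAT1.

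The comparison with vehicle asks whether an extract changed the level of either RNA at a given dose. It was made for 9 groups against the same 3 vehicle libraries, with edgeR's quasi-likelihood test over 17461 genes and a threshold of 0.05 on the Benjamini-Hochberg adjusted p. In all, 22 contrasts were fitted; adjustment was over genes within a contrast and not over contrasts. NEAT1 rose in 7 of the 9 and MALAT1 in 6 of the 9, and neither gene fell in any. Without vehicle replicate 1, 2 or 3 the counts were 4 of 9 for NEAT1 and 1 of 9 for MALAT1 in each case. A bulk value cannot tell fewer expressing cells from less RNA per cell. All 18 fitted differences were above 0, and as the 9 comparisons share their vehicle libraries they are not independent.

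Soshiho-tang at 500 µg/mL gave the largest differences for both genes. NEAT1 rose 2.25-fold, a log2 fold change of 1.17 ± 0.14 (SE; adjusted p = 4.26e-07), and MALAT1 rose 2.26-fold, by 1.18 ± 0.23 (adjusted p = 0.000411). In this comparison 33.1% of all genes tested were called, 17.2% as higher, so a call alone sets neither gene apart. The size of the change was exceeded by 3.10% of genes for NEAT1 and 3.05% for MALAT1. Both calls held when any of the 6 libraries was left out and under each alternative in the closing section.

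At 100 µg/mL of Soshiho-tang NEAT1 rose by 0.46 ± 0.13 (adjusted p = 0.0303) and MALAT1 by 0.84 ± 0.23 (adjusted p = 0.0232), where 10.8% of genes were called. Either call was lost when 1 of several libraries was left out, any vehicle library among them (adjusted p up to 0.164 for NEAT1 and 0.133 for MALAT1). At 20 µg/mL the differences were 0.37 ± 0.13 for NEAT1 (adjusted p = 0.0939) and 0.61 ± 0.23 for MALAT1 (adjusted p = 0.109), and neither passed; 8.03% of genes did.

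Yijin-tang gave smaller differences. NEAT1 rose by 0.40 ± 0.13 at 500 µg/mL (adjusted p = 0.0455, with 15.7% of genes called) and by 0.40 ± 0.13 at 100 µg/mL (adjusted p = 0.0486, with 14.7% called). At 20 µg/mL its difference was 0.36 ± 0.13 (adjusted p = 0.0871, with 10.2% called). MALAT1 rose by 0.75 ± 0.23 at 500 µg/mL (adjusted p = 0.0299). At 100 and 20 µg/mL its differences were 0.30 ± 0.23 and 0.30 ± 0.23 (adjusted p = 0.423 and 0.450), with intervals of 2 SE on either side from -0.16 to 0.77 and from -0.16 to 0.76. All 3 Yijin-tang calls were lost without any 1 vehicle library, and the NEAT1 calls also by DESeq2 (adjusted p = 0.0527 at 500 and 0.0586 at 100 µg/mL).

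Okbyeongpung-san gave higher levels of both genes at each dose. NEAT1 rose by 0.65 ± 0.15 at 500 (adjusted p = 0.00572), by 0.86 ± 0.15 at 100 (adjusted p = 0.00111) and by 0.82 ± 0.15 at 20 µg/mL (adjusted p = 0.00163), where 15%, 9.49% and 10.2% of genes were called. MALAT1 rose by 0.78 ± 0.26 (adjusted p = 0.0425), 0.86 ± 0.26 (adjusted p = 0.0343) and 0.86 ± 0.26 (adjusted p = 0.0331), and each of these calls was lost without any 1 vehicle library (adjusted p = 0.0736 to 0.101). Since all vehicle libraries are of letter E, only replicate 2 can be set against them within a letter. Within letter E NEAT1 differed by 0.41 at 500 µg/mL (adjusted p = 0.0897), by 0.86 at 100 (adjusted p = 0.0177) and by 0.82 at 20 (adjusted p = 0.0302), and MALAT1 by 0.44, 0.64 and 0.83 (adjusted p = 0.320, 0.294 and 0.176). These values rest on 1 library a dose, and their p-values assume that it varies like the libraries of the other groups. With the letter as a term in the fit the NEAT1 calls held and the 3 MALAT1 calls were lost.

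At the lowest dose, the mean of the 3 replicated extracts was compared with vehicle. NEAT1 rose by 0.52 ± 0.12 (adjusted p = 0.00318) and MALAT1 by 0.59 ± 0.20 (adjusted p = 0.0421), where 17.6% of genes were called. The NEAT1 call held without any 1 library. The MALAT1 call was lost without any 1 vehicle library and with the letter term (adjusted p = 0.0617).

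**Figure D2:**
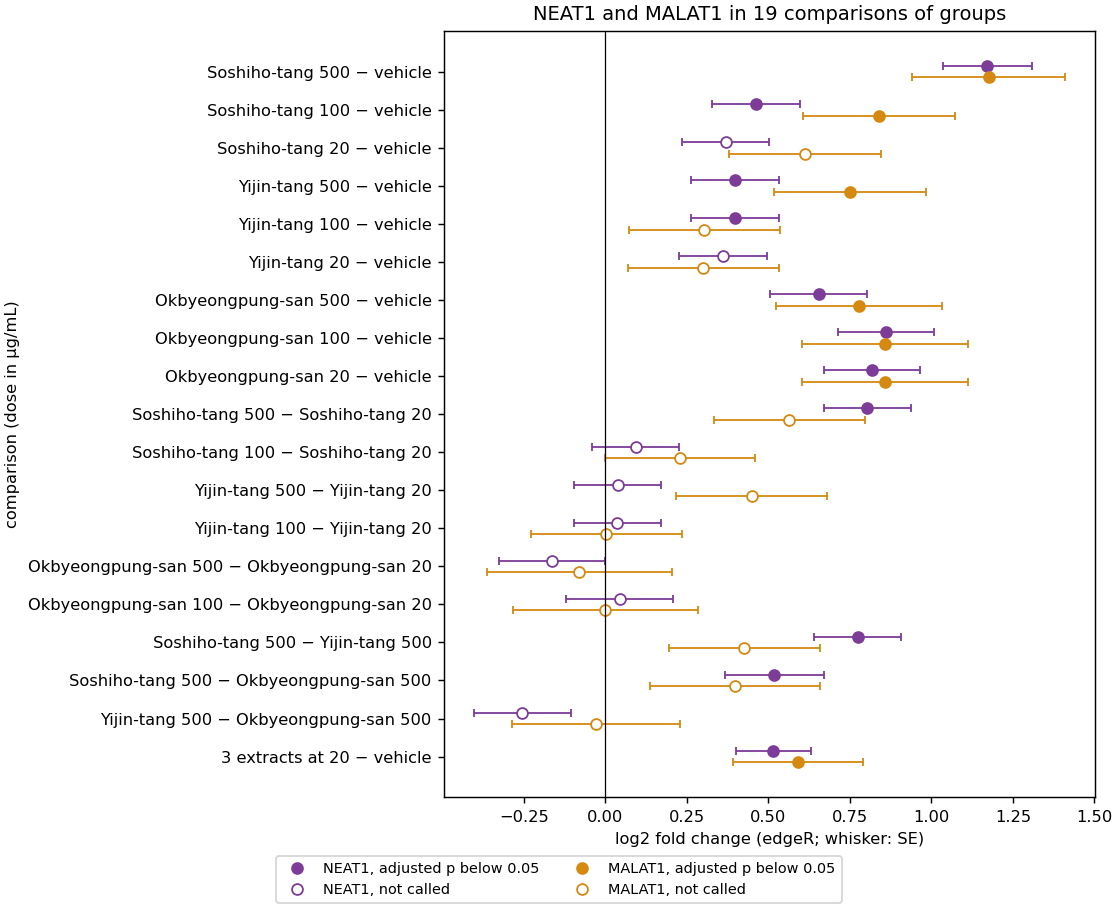
Log2 fold change on the horizontal axis for NEAT1 (purple) and MALAT1 (orange) in 19 comparisons of groups; whiskers are SE, filled points have an adjusted p below 0.05 and open points do not. Points lie to the right of 0 in all comparisons with vehicle, whereas among comparisons of treated groups only NEAT1 is called, in those that involve Soshiho-tang at 500 µg/mL.

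Doses of an extract were compared with each other to leave the vehicle libraries out. NEAT1 rose 1.75-fold from 20 to 500 µg/mL of Soshiho-tang, by 0.80 ± 0.13 (adjusted p = 9.75e-05), where 20.5% of genes were called. The call held without any 1 library, at 0.68 to 0.88. MALAT1 differed by 0.56 ± 0.23, 1.48-fold, which did not pass (adjusted p = 0.0894), with an interval of 2 SE on either side from 0.10 to 1.03. It passed with the replicate number as a block (0.58; adjusted p = 0.0448).

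The other 5 comparisons of doses called neither gene. From 20 to 100 µg/mL of Soshiho-tang the differences were 0.09 ± 0.13 for NEAT1 and 0.23 ± 0.23 for MALAT1. From 20 to 500 µg/mL of Yijin-tang they were 0.04 ± 0.13 and 0.45 ± 0.23, and of Okbyeongpung-san -0.16 ± 0.16 and -0.08 ± 0.28. Intervals of 2 SE on either side for NEAT1 ran from -0.23 to 0.31 in Yijin-tang and from -0.49 to 0.16 in Okbyeongpung-san. From 20 to 100 µg/mL the differences were 0.04 ± 0.13 and 0.00 ± 0.23 for Yijin-tang and 0.04 ± 0.16 and 0.00 ± 0.28 for Okbyeongpung-san. Few genes changed between these doses: edgeR called 0.704% and 0.0229% of genes in Yijin-tang at 500 and 100 µg/mL and 1.59% in Okbyeongpung-san at 500 µg/mL. It called 0% at 100 µg/mL of Soshiho-tang, where 422 genes had an unadjusted p below 0.05 and DESeq2 called 0, and 0% at 100 µg/mL of Okbyeongpung-san, where the numbers were 294 and 1. For MALAT1 1 of the 6 dose comparisons had an unadjusted p below 0.05, and DESeq2 called 0 of them.

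Whether the dose effect differed between extracts was tested with the difference of the 500 minus 20 µg/mL contrasts. The NEAT1 dose effect was larger in Soshiho-tang than in Yijin-tang by 0.77 ± 0.19 (adjusted p = 0.0184, with 4.04% of genes called) and than in Okbyeongpung-san by 0.97 ± 0.21 (adjusted p = 0.00537, with 7% called). The first call was lost without replicate 2 of Soshiho-tang at 500 µg/mL (0.65; adjusted p = 0.0812), without replicate 2 of Yijin-tang at 500 µg/mL or without replicate 1 of Yijin-tang at 20 µg/mL. The second was lost without replicate 2 of Okbyeongpung-san at 500 µg/mL, the library that stood apart (0.76; adjusted p = 0.0727). Yijin-tang and Okbyeongpung-san differed by 0.20 ± 0.21 (adjusted p = 0.711, with 0.16% called). The MALAT1 dose effects differed by 0.11 ± 0.33, 0.64 ± 0.37 and 0.53 ± 0.37 in the same order, and edgeR called 0 of the 3, with 0 at an unadjusted p below 0.05 and 0 by DESeq2.

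At 500 µg/mL the extracts were compared at a matched dose and time. NEAT1 was 1.71-fold higher in Soshiho-tang than in Yijin-tang, by 0.77 ± 0.13 (adjusted p = 0.000259, with 12.6% of genes called), and this held without any 1 library. It was higher than in Okbyeongpung-san by 0.52 ± 0.15 (adjusted p = 0.0176, with 18.7% called). Without replicate 2 of Okbyeongpung-san that difference was 0.31 (adjusted p = 0.360), and without replicate 2 of Soshiho-tang 0.40 (adjusted p = 0.0942). Yijin-tang and Okbyeongpung-san differed by -0.26 ± 0.15 (adjusted p = 0.370, with 2.31% called). MALAT1 differed by 0.43 ± 0.23, 0.40 ± 0.26 and -0.03 ± 0.26 in the same order, which did not pass (adjusted p = 0.257, 0.318 and 0.969). Intervals of 2 SE for the first pair ran from -0.04 to 0.89 and for the last from -0.54 to 0.49. Across replicates the biological coefficient of variation was 11.5% for NEAT1 and 19.6% for MALAT1, beside a common value of 6.89%; 78.2% and 91.3% of genes had a lower one.

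The ratio of the NEAT1 count to the MALAT1 count within a library does not depend on how libraries are scaled. In vehicle it was 0.490 ± 0.00953 (SD, n = 3), at 0.501, 0.484 and 0.486. Soshiho-tang at 500 µg/mL left it at 0.495 ± 0.0386, with 0.487, 0.460 and 0.536, so the vehicle values lie within that range. At 100 and 20 µg/mL Soshiho-tang gave 0.386 ± 0.067 and 0.418 ± 0.0491, below every vehicle library. Yijin-tang at 500 µg/mL gave 0.387 ± 0.024, also below every vehicle library, and so were replicates 1 and 2 at its lower doses, with 0.463 and 0.440 at 100 µg/mL and 0.440 and 0.480 at 20 µg/mL. Replicate 3 at these doses held the highest ratios of all, 0.773 and 0.686. These are the libraries in which MALAT1 lay below vehicle while NEAT1, at 394 and 385 CPM, lay above it.

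The ratios were compared by an exact permutation test, which with 3 against 3 libraries cannot go below p = 0.1, so no comparison of this kind could pass. Of 12 two-sided exact permutation tests of the log2 ratio, 5 reached that smallest value, with a Benjamini-Hochberg adjusted value of 0.24 over the 12. They were the comparisons with vehicle of Soshiho-tang at 100 and 20 µg/mL and of Yijin-tang at 500 µg/mL, that of Yijin-tang at 500 with 20 µg/mL, and that of both extracts at 500 µg/mL. All 27 treated libraries against vehicle gave a log2 difference of -0.09 (exact permutation p = 0.52 over 4060 arrangements).

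**Figure D3:**
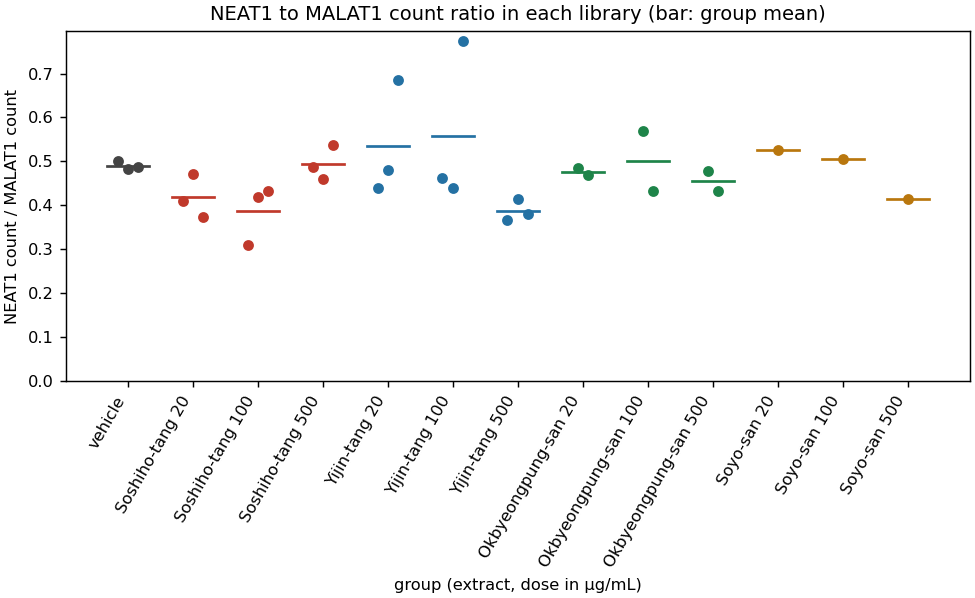
NEAT1 count divided by MALAT1 count on the vertical axis for each library, by extract and dose in µg/mL, with bars at group means. Vehicle libraries lie between 0.484 and 0.501, and the highest ratios, 0.773 and 0.686, are replicate 3 of Yijin-tang at 100 and 20 µg/mL.

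Among replicates the RNAs deviated together. After subtraction of group means from log2 CPM, Pearson's r between NEAT1 and MALAT1 was 0.716 (p = 0.0100, permutation within groups) and Spearman's rho 0.758 (permutation p = 0.00224) over the 27 libraries of replicated groups. Without the 2 libraries farthest from the median r was 0.681. Without Okbyeongpung-san, which leaves 21 libraries of letter E, r was 0.696 (permutation p = 0.0196) and rho 0.691 (permutation p = 0.0126). These are 2 sets of libraries, and the Benjamini-Hochberg adjusted values were 0.0196 and 0.0196 for r and 0.00448 and 0.0126 for rho. Both genes come from the same libraries and so share their depth and scaling. The permutation also takes groups as independent of each other. In Yijin-tang replicate 1 was the highest for both RNAs at every dose, so these p-values may be too small.

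Likeness of pattern was then measured by Pearson's r of log2 CPM over the 27 treated libraries, among 11192 genes with a symbol and a mean log2 CPM of at least 2. These points share treatment groups and libraries, so the values are a description. NEAT1 and MALAT1 had r = 0.736, which placed MALAT1 at rank 98 for NEAT1 and NEAT1 at rank 191 for MALAT1; the median gene had r = -0.04 with NEAT1 and -0.05 with MALAT1. The genes most like NEAT1 were AADAC, which encodes arylacetamide deacetylase (0.911), GOLGA8B, a golgin of a family of near-identical copies (0.906), SLFNL1-AS1, an antisense RNA (0.883), ELP2, a subunit of the Elongator complex (0.874), and ZNF26, a zinc finger protein (0.871). GOLGA8B and SLFNL1-AS1 have an uncertain assignment of reads, because of its copies and of the overlap with SLFNL1. All 5 were higher in Soshiho-tang at 500 µg/mL than in vehicle, by 0.44 to 0.88, where 17.2% of all genes were called higher. Soshiho-tang at 500 µg/mL holds the highest NEAT1 values among the treated libraries, so this follows in part from how the genes were chosen.

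The genes most like MALAT1 were a different set. They were MDM4 and MDM2, which encode the inhibitors of p53 (0.954 and 0.918), ZBTB25, a zinc finger protein (0.930), SNHG16, a host gene of small nucleolar RNAs (0.923), and NT5DC3 (0.915). None was called between Soshiho-tang at 500 µg/mL and vehicle, where MDM4 differed by 0.28 ± 0.20 (edgeR adjusted p = 0.314) and MDM2 by 0.10 ± 0.13 (adjusted p = 0.580), whereas MALAT1 rose by 1.18. Over all 30 libraries, vehicle included, their r with MALAT1 was 0.785 for MDM4 and 0.612 for MDM2.

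Protein partners of the RNAs were described from lists of their known components, by the calls over all genes tested. Of 20 paraspeckle proteins, 1 rose and 11 fell in Soshiho-tang at 500 µg/mL against vehicle, with a median log2 fold change of -0.14, beside 0.01 for all genes and 17.2% higher and 15.9% lower calls. CIRBP, the cold-inducible RNA-binding protein, rose from 45.6 ± 1.28 to 84.2 ± 5.66 CPM (SD, n = 3 and 3), by 0.88 ± 0.11 (adjusted p = 1.23e-06). SFPQ, which binds NEAT1 along its length and is needed for paraspeckles, fell from 435 ± 26.4 to 308 ± 1.86 CPM, by 0.50 ± 0.06 (adjusted p = 4.31e-07). RBM14 fell by 0.60 ± 0.07 (adjusted p = 1.94e-07), HNRNPUL1 by 0.52 ± 0.07 and NONO, the partner of SFPQ, by 0.21 ± 0.04. HNRNPK did not pass, at -0.03 ± 0.05 (adjusted p = 0.643).

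Against 20 µg/mL of Soshiho-tang, without vehicle, 2 of the 20 rose and 9 fell, with a median of -0.13, beside 0.00 for all genes and 10.3% higher and 10.2% lower calls. CIRBP rose by 0.61 ± 0.11 and TAF15, an RNA-binding protein, by 0.23 ± 0.07, SFPQ fell by 0.31 ± 0.06 and RBM14 fell by 0.43 ± 0.07, whereas NONO was at -0.11 ± 0.04 (adjusted p = 0.0640). In Yijin-tang at 500 µg/mL against vehicle 1 rose and 6 fell, where 8.12% of all genes were higher and 7.56% lower. In Okbyeongpung-san at 500 µg/mL 1 rose and 3 fell, beside 7.19% higher and 7.76% lower. Of the 4 genes that act on the choice of the NEAT1 3′ end, CPSF6 fell by 0.28 ± 0.05 and CPSF7 by 0.18 ± 0.06 in Soshiho-tang at 500 µg/mL against vehicle. NUDT21 and HNRNPK did not pass there, where 15.9% of all genes were called lower. Against 20 µg/mL of Soshiho-tang HNRNPK fell by 0.16 ± 0.05, while CPSF6 (-0.13 ± 0.05), CPSF7 (-0.04 ± 0.05) and NUDT21 did not pass. CPSF6 also fell against vehicle in Yijin-tang (by 0.17 ± 0.05) and Okbyeongpung-san (by 0.25 ± 0.05) at 500 µg/mL, and CPSF7 passed in neither. CPSF6, NUDT21 and CPSF7 form cleavage factor Im, which favours the short isoform.

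Among messenger RNAs of nuclear speckle proteins falls outnumbered rises. Of 24, 2 rose and 13 fell in Soshiho-tang at 500 µg/mL against vehicle, beside 17.2% and 15.9% of all genes, with a median of -0.19. SRRM1 fell by 0.81 ± 0.09, and SRRM2 and SON, the scaffold proteins of the speckle, fell by 0.49 ± 0.08 and 0.42 ± 0.07. The splicing factors SRSF1 and SRSF2 fell by 0.14 ± 0.05 and 0.22 ± 0.05, while U2AF1, a subunit of the factor that reads the 3′ splice site, rose by 0.39 ± 0.11 and SRSF5 by 0.16 ± 0.04. U2AF1 has a near-identical copy, so its assignment is uncertain. Against 20 µg/mL of Soshiho-tang 0 rose and 9 fell, beside 10.3% and 10.2% of all genes, with a median of -0.15. SON fell by 0.26 ± 0.07, whereas SRRM1 at -0.23 ± 0.09 (edgeR adjusted p = 0.0638) and SRRM2 at -0.10 ± 0.08 (adjusted p = 0.426) did not pass. In Yijin-tang at 500 µg/mL against vehicle SRRM1 fell by 0.62 ± 0.09 and SRRM2 by 0.45 ± 0.08, and SON did not pass. In Okbyeongpung-san at 500 µg/mL they fell by 0.45 ± 0.10, 0.26 ± 0.09 and 0.27 ± 0.08. SRSF1 and SRSF2 passed in neither extract.

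Genes whose products process or bind the RNA ends came next. Of 12 genes of RNase P and tRNA 3′ processing, 1 rose and 3 fell in Soshiho-tang at 500 µg/mL against vehicle, with a median of 0.01, which is near the 17.2% and 15.9% of all genes. ELAC2, the tRNase Z that trims mascRNA, fell by 0.16 ± 0.06, and POP1 and POP4, subunits of RNase P, fell by 0.26 ± 0.06 and 0.16 ± 0.05. RPP25L, a relative of an RNase P subunit, rose by 0.48 ± 0.10. Against 20 µg/mL of Soshiho-tang 0 rose and 4 fell, beside 10.3% and 10.2% of all genes, and ELAC2 fell by 0.21 ± 0.05. Of 7 genes for N6-methyladenosine and the triple helix, 0 rose and 3 fell in Soshiho-tang at 500 µg/mL against vehicle, beside 17.2% and 15.9% of all genes. METTL16, which binds the MALAT1 triple helix, was at -0.03 ± 0.05 (adjusted p = 0.715). YTHDC1, the nuclear reader of that mark, fell by 0.32 ± 0.05, and HNRNPA2B1 and HNRNPC fell by 0.25 ± 0.05 and 0.20 ± 0.05.

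Other nuclear RNAs were described beside the pair. Of 10 other nuclear-enriched long non-coding RNAs, 5 rose and 0 fell in Soshiho-tang at 500 µg/mL against vehicle, beside 17.2% and 15.9% of all genes, with a median of 0.24. Compared with 20 µg/mL, 4 rose, beside 10.3% of all genes. MEG3, an imprinted RNA, rose from 44.2 ± 0.737 to 74.7 ± 6.44 CPM, by 0.76 ± 0.06, and MIR100HG, a host of microRNAs, by 1.04 ± 0.14. JPX, an activator of XIST, rose by 0.45 ± 0.07. TUG1 and KCNQ1OT1, both chromatin-bound RNAs, were at -0.11 ± 0.08 and -0.29 ± 0.19 and did not pass. In the 3 Yijin-tang and 3 Okbyeongpung-san groups at most 2 of the 10 were called, where 9.49% to 15.7% of all genes were called against vehicle.

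Most long non-coding RNAs that leave the nucleus or host small nucleolar RNAs rose. Of 16, 12 rose and 0 fell in Soshiho-tang at 500 µg/mL against vehicle, with a median of 0.62, beside 17.2% and 15.9% of all genes. Compared with 20 µg/mL, 9 rose and 1 fell, with a median of 0.19, beside 10.3% and 10.2% of all genes. GAS5 rose from 85.0 ± 1.70 to 176.8 ± 15.2 CPM, by 1.06 ± 0.08, SNHG5 by 1.18 ± 0.16 and ZFAS1 by 1.17 ± 0.08, about as much as NEAT1 and MALAT1. In Yijin-tang and Okbyeongpung-san at 500 µg/mL 10 and 8 of the 16 rose, beside 8.12% and 7.19% of all genes. Messenger RNAs that are held in the nucleus with a retained intron gave 5 higher and 2 lower of 19 in Soshiho-tang at 500 µg/mL against vehicle, with a median of 0.00, which is near the 17.2% and 15.9% of all genes. OGT, which encodes the O-GlcNAc transferase, rose by 0.66 ± 0.08 and CCNL2, a cyclin of splicing kinases, by 0.48 ± 0.06.

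**Figure D4:**
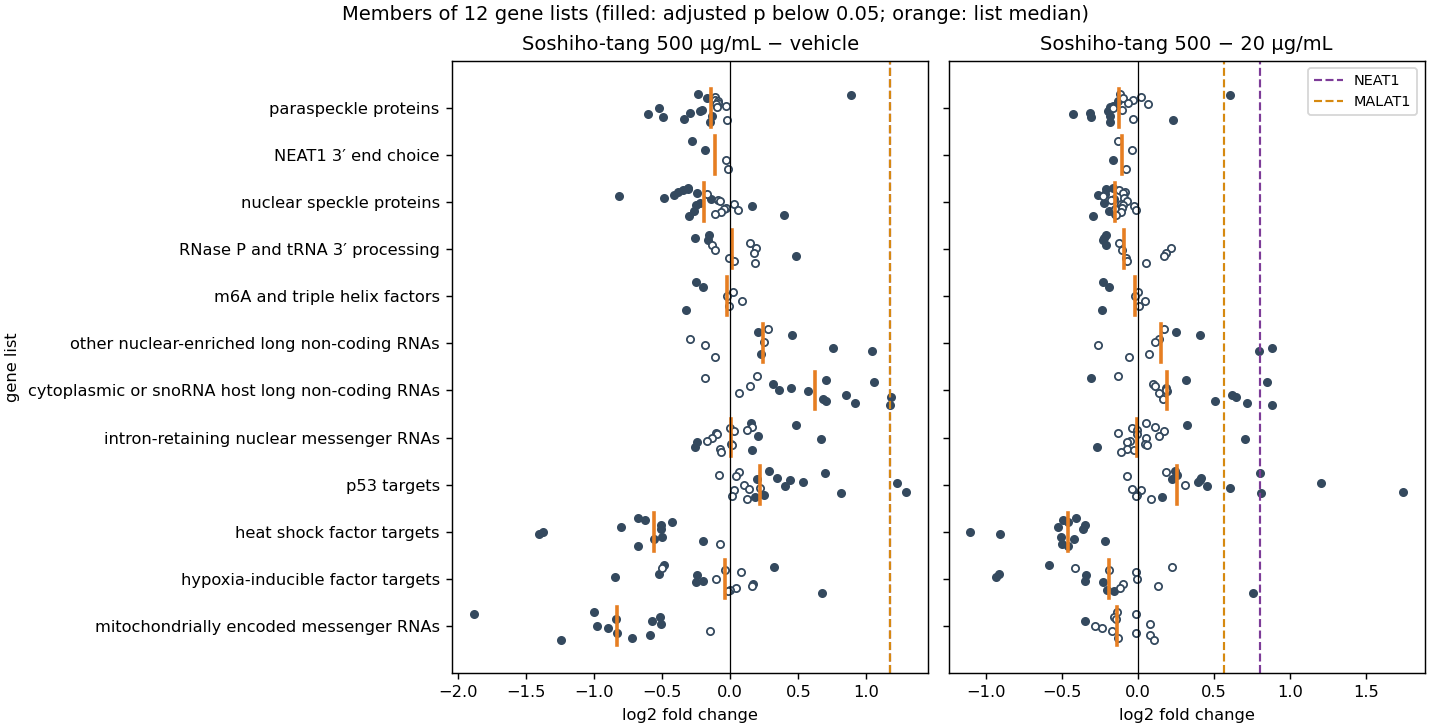
Log2 fold change on the horizontal axis for members of 12 gene lists in Soshiho-tang at 500 µg/mL against vehicle (left) and against 20 µg/mL (right); filled points have an adjusted p below 0.05, orange bars are list medians and dashed lines are NEAT1 and MALAT1, which coincide on the left at 1.17 and 1.18. No paraspeckle or nuclear speckle protein reaches either line on the left, whereas SNHG5 and ZFAS1 are at 1.18 and 1.17.

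Long transcripts as a class did not rise with the pair. In Soshiho-tang at 500 µg/mL against vehicle the median log2 fold change was 0.07 for genes with a longest transcript under 2 kb and -0.11 for the 610 genes of 10 kb or more, of which 10.3% were higher and 25.7% lower. Of 2394 long non-coding genes, 278 were higher (11.6%) and 126 lower (5.26%), beside 17.2% and 15.9% of all genes, with a median of 0.12. With an offset for transcript length and GC content, NEAT1 differed by 1.31 and MALAT1 by 1.22 in this comparison. Against 20 µg/mL of Soshiho-tang, 9.84% of the genes of 10 kb or more were higher and 9.34% lower, with a median of -0.03. In every comparison with vehicle more of them were lower than higher. For the mean of extracts at 20 µg/mL the shares were 17.7% lower and 1.97% higher, and for Okbyeongpung-san at 500 µg/mL 28.2% and 2.13%. The cause of this skew by length was not tested.

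No gene around NEAT1 and MALAT1 was called higher with them at the top dose of Soshiho-tang against vehicle. Of 24 other genes that passed the filter within 250 kb of the interval, 0 were higher and 7 lower, beside 17.2% and 15.9% of all genes, with a median of -0.13. Log2 fold changes of the 24 ran from -1.22 to 0.55. FRMD8, just upstream of NEAT1 on the same strand, was at 0.13 ± 0.07 (adjusted p = 0.120). FAUP4, a pseudogene between the pair, fell by 0.68 ± 0.18, with at most 84 counts in a library. CDC42EP2, an effector of the GTPase CDC42, fell by 0.57 ± 0.12, and POLA2, a subunit of DNA polymerase alpha, by 0.33 ± 0.06. Against 20 µg/mL of Soshiho-tang 1 of the 24 was higher and 3 were lower, with a median of -0.08, beside 10.3% and 10.2% of all genes. The higher one was SLC25A45, by 0.27 ± 0.09 (adjusted p = 0.0419). In Okbyeongpung-san at 500 µg/mL against vehicle 4 were higher, FRMD8 by 0.23 ± 0.07 among them, and 1 was lower, beside 7.19% and 7.76% of all genes.

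**Figure D5:**
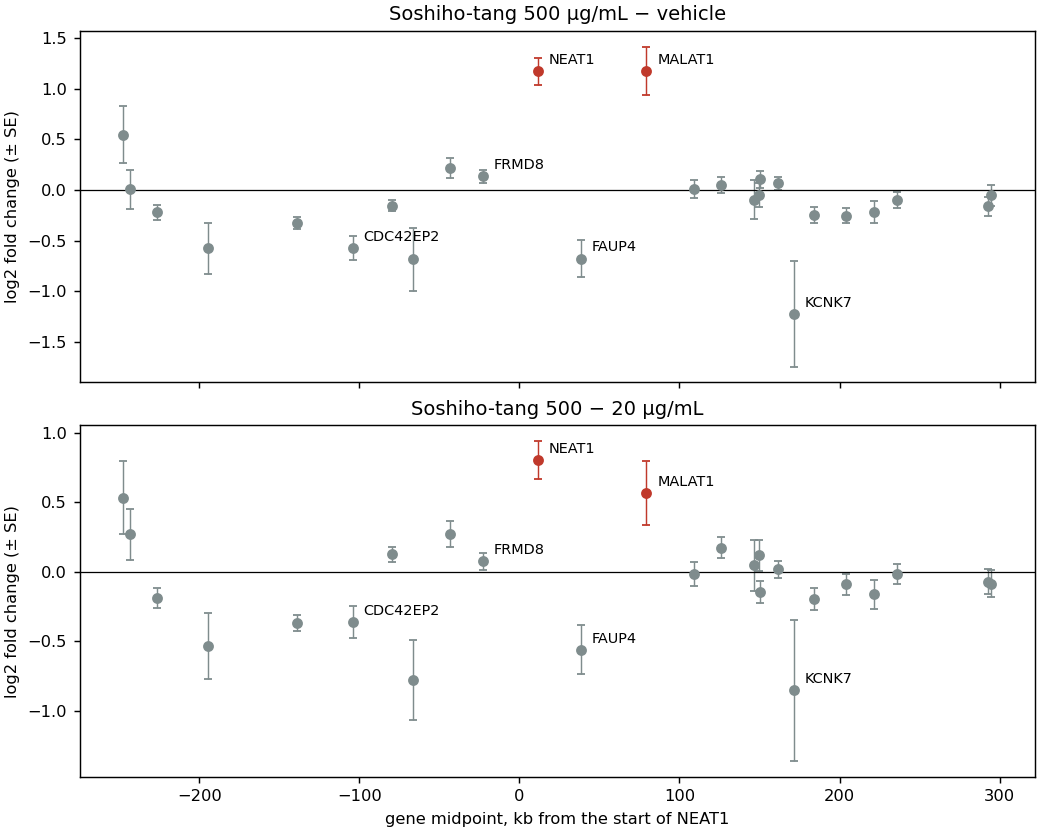
Log2 fold change with SE on the vertical axis against the distance of a gene's midpoint from the start of NEAT1 in kb, in Soshiho-tang at 500 µg/mL against vehicle (top) and against 20 µg/mL (bottom); NEAT1 and MALAT1 are red and the 24 other genes within 250 kb are grey. NEAT1 at 1.17 and MALAT1 at 1.18 lie above every neighbour in the top panel.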

How the data were processed

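RNA of 30 A549 libraries, prepared with a directional kit and read as 100 bp pairs per the labels' protocols, had been turned by the authors into expected counts per gene; the deposited table gives no other unit. The submitters' processing notes name STAR 2.7.3a, RSEM 1.3.3, Trim Galore 0.6.5 and FastQC 0.11.9, and the builds hg38 and GRCh38. Strand setting and annotation release are not given in the sources used here, and how RNA was selected is not stated. The table also held 30 columns without values, which were not used. Between 9.09% and 11.6% of the values per library were not whole, and all were rounded. GENCODE release 29 gave positions and lengths for 57055 of 60675 identifiers, and 41209 had a symbol.

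A single model over the 27 libraries of the 10 replicated groups was fitted with edgeR 4.0.16 under R 4.3.3 (TMM, filterByExpr, glmQLFit, glmQLFTest, no block), which left 17461 genes. Adjusted p-values are Benjamini-Hochberg over these genes, and SE is the absolute log2 fold change over the square root of F. DESeq2 1.42.0, limma 3.58.1 (loaded by edgeR) and scipy 1.17.1 served for alternatives and exact tests; the fit was tested on simulated data. The alternatives were DESeq2 size factors, DESeq2's Wald test, no filter, a mean count of at least 100, only the groups compared, a replicate block, the title letter as a term, a length and GC offset added to the log library size, library sizes without mitochondrial genes, and leaving out each library. Permutation tests used 100000 resamples or all arrangements. Counting error alone was small at these counts, and spread between libraries limits the precision.

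Members and gene lists were chosen with earlier results of these data known. Named genes were NEAT1 and MALAT1, the 5 genes most like each, up to 4 called list members with the largest change plus set core members, and tested genes within 250 kb; TUG1, KCNQ1OT1, TAF15 and SRSF5 were added after their values were seen. Same-numbered libraries deviated together most clearly between Yijin-tang 100 and 20 µg/mL (correlations of deviations 0.12 to 0.30), and the block changed no call of either gene there. Between Yijin-tang 500 and 20 µg/mL these correlations were also all positive (0.00848 to 0.158). The series text gives 2% DMSO for the vehicle, and other treatments it mentions were not analysed here, and values of a few list members and neighbours are not reported here.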

Additional observations from a re-analysis of the deposited data

Results flagged for a closer look

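The dose effect of Soshiho-tang on NEAT1 differed from that of the other replicated extracts by a test of the difference itself. The log2 fold change from 20 to 500 µg/mL was larger than in Yijin-tang by 0.77 ± 0.19 (SE; edgeR adjusted p = 0.0184), and it was 0.80 in Soshiho-tang and 0.04 in Yijin-tang. It was larger than in Okbyeongpung-san by 0.97 ± 0.21 (adjusted p = 0.00537), where the dose effect was -0.16. Without replicate 2 of Okbyeongpung-san at 500 µg/mL the second difference was 0.76 (adjusted p = 0.0727), and the first ranged from 0.61 to 0.89 when a library was left out, with adjusted p up to 0.0812. No group has 4 or more libraries, so no single library was tested as an outlier.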

How the results depend on the processing

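No setting turned the sign of a called value. The calls of both genes in Soshiho-tang at 500 µg/mL against vehicle, and of NEAT1 against 20 µg/mL of Soshiho-tang and against Yijin-tang at 500 µg/mL, held under every alternative run. Calls lost: with DESeq2 size factors NEAT1 in Yijin-tang 100 against vehicle (0.39); with DESeq2 NEAT1 in Yijin-tang 500 (0.39) and 100 (0.39); with the letter term MALAT1 in Okbyeongpung-san 500, 100 and 20 (0.58, 0.67 and 0.69) and in the mean of extracts at 20 (0.53); with the length and GC offset NEAT1 in Soshiho-tang 500 against Okbyeongpung-san 500 (0.36), and with only the groups compared the same (0.52). Calls gained: with the offset NEAT1 in Soshiho-tang 20 (0.48) and Yijin-tang 20 (0.52) against vehicle and MALAT1 in Soshiho-tang 500 against 20 (0.59); with only the groups compared NEAT1 (0.37) and MALAT1 (0.61) in Soshiho-tang 20, and MALAT1 in Soshiho-tang 500 against 20 (0.57) and against Yijin-tang 500 (0.43). The replicate block gained MALAT1 in Soshiho-tang 500 against 20 (0.58) and changed no other call of either gene. In the comparisons other than Yijin-tang 100 against 20, correlations of same-numbered libraries ran from -0.15 to 0.20. They were of mixed sign in some comparisons and all positive in others, Yijin-tang 500 against 20 among them (0.00848 to 0.158).

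Without a filter the SE fell to about 0.06, and NEAT1 passed in Soshiho-tang 20 (0.39) and Yijin-tang 20 (0.39) against vehicle and in Yijin-tang against Okbyeongpung-san at 500 (-0.26). MALAT1 then passed in Soshiho-tang 20 (0.63), Yijin-tang 100 (0.32) and 20 (0.33) against vehicle, in Soshiho-tang 500 against 20 (0.56), Yijin-tang 500 against 20 (0.45), Soshiho-tang 500 against Yijin-tang 500 (0.41) and Okbyeongpung-san 500 (0.39), and in the dose differences of Soshiho-tang (0.63) and Yijin-tang (0.52) to Okbyeongpung-san. The cause was not tested.

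Leaving out 1 library moved NEAT1 against vehicle to 0.34 to 0.57 in Soshiho-tang 100, 0.33 to 0.48 in Yijin-tang 500, 0.28 to 0.48 in Yijin-tang 100, 0.21 to 0.48 in Yijin-tang 20 and 0.41 to 0.86 in Okbyeongpung-san 500. Soshiho-tang against Okbyeongpung-san at 500 gave 0.31 to 0.76, and the dose differences 0.61 to 0.89 for Yijin-tang and 0.76 to 1.22 for Okbyeongpung-san. MALAT1 against vehicle gave 0.68 to 1.02 in Soshiho-tang 100, 0.64 to 0.87 in Yijin-tang 500, 0.44 to 1.05, 0.64 to 1.05 and 0.83 to 0.89 in Okbyeongpung-san 500, 100 and 20, and 0.48 to 0.65 in the mean at 20. Of 13 NEAT1 calls 7 and of 7 MALAT1 calls 6 were lost in at least 1 such fit. These fits also hold fewer libraries, and the part of that in the losses was not tested.

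The number of genes called moved by over 1.5 times with only the groups compared: from 1402 to 2989 in Soshiho-tang 20, 2737 to 4260 in Yijin-tang 500, and 2611 to 436, 1657 to 4579 and 1773 to 4647 in Okbyeongpung-san 500, 100 and 20 against vehicle, from 3266 to 608 in Soshiho-tang and from 404 to 3 in Yijin-tang against Okbyeongpung-san, from 123 to 54 in Yijin-tang and 278 to 0 in Okbyeongpung-san 500 against 20, from 4 to 0 in Yijin-tang 100 against 20, and in the dose differences to Okbyeongpung-san from 1223 to 473 (Soshiho-tang) and 28 to 4 (Yijin-tang). The offset gave 3450 in place of 2200 in Soshiho-tang against Yijin-tang, 1463 in place of 705 in their dose difference, and 286 in Yijin-tang 500 against 20. The letter term gave 1032 and 1163 in Okbyeongpung-san 100 and 20, 1711 in Yijin-tang against Okbyeongpung-san and 436 in Okbyeongpung-san 500 against 20. Of these small counts, 278 became 512 with DESeq2 and 918 without a filter, 404 became 924 without a filter and 622 with the block, and 123 became 237 without a filter.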

Other observations

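Targets of 3 stress pathways were counted in the same comparisons. Of 21 p53 targets, 12 rose and 0 fell in Soshiho-tang at 500 µg/mL against vehicle, with a median log2 fold change of 0.22, beside 17.2% higher and 15.9% lower calls among all genes. Against 20 µg/mL 13 rose and 0 fell, with a median of 0.26, beside 10.3% higher and 10.2% lower calls among all genes. SESN2, a stress-induced sestrin, rose from 15.3 ± 1.34 to 37.4 ± 3.45 CPM (SD, n = 3 and 3), by 1.29 ± 0.10 against vehicle, and by 1.74 ± 0.10 against 20 µg/mL. TNFRSF10B, a death receptor, rose by 0.81 ± 0.05 in both comparisons. MDM2, named above, was not called in either, at 0.10 against vehicle (edgeR adjusted p = 0.580) and 0.31 against 20 µg/mL (adjusted p = 0.0914). Activity of p53 itself was not tested. In Yijin-tang at 500 µg/mL 1 of the 21 rose and 0 fell, near the 8.12% and 7.56% of all genes, and in Okbyeongpung-san at 500 µg/mL 1 rose and 1 fell, near 7.19% and 7.76%.

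Heat shock factor targets went the other way. Of 13, 0 rose and 12 fell in Soshiho-tang at 500 µg/mL against vehicle, with a median of -0.56, beside 17.2% and 15.9% of all genes. Compared with 20 µg/mL, 0 rose and 13 fell, beside 10.3% and 10.2% of all genes. HSP90AA1, a cytosolic chaperone, fell from 2749 ± 5.18 to 1575 ± 45.9 CPM, by 0.80 ± 0.05. HSPA1A and HSPA1B, near-identical copies of the inducible HSP70 gene whose reads can be split between them, differed by -1.37 ± 0.12 and -1.40 ± 0.13, and both passed. Of 17 targets of hypoxia-inducible factors 3 rose and 6 fell in Soshiho-tang at 500 µg/mL against vehicle, beside 17.2% and 15.9% of all genes, with a median of -0.04; VEGFA, a vascular growth factor, rose by 0.68 ± 0.06, and EGLN3, an oxygen-sensing hydroxylase, fell by 0.85 ± 0.08. Mitochondrially encoded messenger RNAs fell in 12 of 13 against vehicle, with a median of -0.83, beside 15.9% of all genes. Compared with 20 µg/mL, 1 of 13 fell, with a median of -0.14, near the 10.2% of all genes.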
